A study of Homo sapiens with 2 samples.

Results

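The genes described here encode the NF-kB transcription factor subunits and the IkB proteins that bind them. They were chosen from a list of 10 symbols, by taking every probe set of the array annotated to exactly 1 symbol from that list. This gave 20 probe sets for 9 genes, of 41091 probe sets for 19775 genes in all. The missing gene is BCL3, whose probe sets carry a further symbol. Affymetrix HG-U133 Plus 2.0 arrays measured total RNA from MM.1S, an established human multiple myeloma cell line, either grown together with plasmacytoid dendritic cells (pDCs) or grown alone. Whether pDCs were taken out before RNA extraction is not stated, so RNA of MM.1S cells and of pDCs cannot be told apart in co-culture. Each condition had 1 array, so no value has a replicate error and no test between conditions was possible. "Higher" and "lower" below describe these 2 arrays, co-culture relative to MM.1S alone. The series asks by which molecular routes pDCs support the growth and drug resistance of myeloma cells.

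NF-kB factors are dimers of proteins that share a Rel homology domain. In the canonical pathway, p50 (from NFKB1) pairs with RELA or REL and is held in the cytoplasm by IkB proteins until the IKK complex marks these for degradation. In the non-canonical pathway, NIK and IKK alpha drive the processing of p100 (from NFKB2) to p52, which pairs with RELB. Several subunit and IkB genes are themselves transcribed by NF-kB, which gives feedback, and myeloma cells are known for mutations that activate either arm. These steps act largely on protein stability and location, which transcript levels do not measure.

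The kB motif, the DNA site of these dimers with G bases at one end and C bases at the other, was searched on both strands of RefSeq promoter windows (GRCh38.p14, from 250 bases before to 50 bases after each annotated start). Windows were found for 8 of the 10 listed genes, and 7 of these genes held a match in at least 1 window: NFKB1, REL, NFKB2, NFKBIA, NFKBIB, NFKBIZ and BCL3. The exception was RELA. Over all genes, 13.3% of 27305 had such a match, and 11.3% of 35116 windows did. Among NF-kB target genes listed for comparison (below), 16 of 26 with a window had one. The stretches below are shown because they stand before genes whose signals lay on opposite sides: NFKB1 was higher in co-culture, NFKBIA lower, and NFKB2 and NFKBIZ had probe sets on either side. Each runs 5′ to 3′ on the strand of the gene, with the matched bases in capitals.
NFKB1: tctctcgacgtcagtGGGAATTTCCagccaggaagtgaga
NFKB2: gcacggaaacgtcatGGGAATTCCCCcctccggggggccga
NFKB2, another start: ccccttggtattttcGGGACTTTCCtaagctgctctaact
NFKBIA: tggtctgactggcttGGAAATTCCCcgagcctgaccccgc
NFKBIZ: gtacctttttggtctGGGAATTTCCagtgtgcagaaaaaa
The NFKB1 stretch is chr4:102501295-102501334 on the plus strand, with the match beginning 49 bases before the start site. The NFKB2 stretches are chr10:102394456-102394496 and chr10:102395669-102395708 on the plus strand, beginning 107 and 21 bases before their starts. The first of these holds overlapping matches, on both strands. The NFKBIA stretch is chr14:35404806-35404845 on the minus strand, 81 bases before the start, with the match on the strand opposite to the gene. The NFKBIZ stretch is chr3:101827752-101827791 on the plus strand, 223 bases before one of its starts. A match is a description of the letters and shows no binding.

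The deposited values are linear MAS5 signals, which estimate the abundance of a transcript from the probes of 1 probe set. The median signal of each array, 115.9 in co-culture and 124.0 in MM.1S alone, served as a floor, and a probe set under it on both arrays has no ratio. Of 9 plasma cell markers 8 were above the floor on both arrays, with SDC1 at 10177 in co-culture against 10503 alone, IRF4 at 11634 against 11111, XBP1 at 31891 against 44501 and CD38 at 1060.2 against 1686. Their median log2 ratio was -0.47, with 6 of 9 negative, 3 positive and none past 2-fold. The highest was that of TNFRSF17, named after its values were seen, at 0.46. Markers of the myeloma cells themselves thus had a negative median but were not lower throughout. The pDC markers CLEC4C (61.4 against 6.43) and IL3RA (29.0 against 21.1) were under the floor on both arrays, LILRA4 gave 306 against 256 and NRP1 35.0 against 146. Of 13 pDC markers with a ratio 9 were negative, with 5 at least 2-fold lower and 1 (LAMP5) at least 2-fold higher. Summed over 17 pDC markers the signal was 26690 in co-culture and 18704 alone, and without LAMP5 (19601 against 9053) it was 7089 and 9651. LAMP5, TCF4 (3569 against 4400) and IRF7 (1073 against 1303) were bright in MM.1S grown alone, so these sums do not measure pDC RNA. Of 10 monocyte and macrophage markers 1 was above the floor on both arrays, and their sum was 820 against 1737, with CD14 at 26.9 against 139 and LYZ, the largest single difference, at 17.0 against 711. LYZ made up most of the difference between these sums. On the deposited signals ITGAM (234 against 104), FCN1 (123 against 62.6) and FCGR1A (76.9 against 20.3) went the other way. FCN1 was under the floor in MM.1S alone and FCGR1A was under it on both arrays. The summed signal of 5 platelet markers was 492 against 1652, with PPBP, named after its values were seen, at 30.6 against 957. PPBP made up most of this difference, and PF4, under both floors, went the other way (33.0 against 12.7). The 3′ to 5′ signal ratio, a measure of RNA integrity, also differed: that of the ACTB control was 8.09 in co-culture and 19.5 alone, and that of GAPDH was 2.46 and 3.07. The part of these differences in the results below was not tested, and in such bulk RNA fewer cells of a type and less RNA per cell cannot be told apart.

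NFKB1 was higher in co-culture, while RELA, NFKB2, RELB, NFKBIA, NFKBIB, NFKBIE and NFKBIZ were all lower when each gene was read from its brightest probe set. The median log2 ratio (co-culture minus alone) of the 8 genes with a ratio was -0.62, against -0.04 over all 14408 genes with one and -0.47 over the plasma cell markers. In the same 14408 genes 53.3% were negative, against 7 of these 8. Only NFKB1 passed 2-fold, the size used here as a threshold. Of all genes, 3.16% were at least 2-fold higher and 4.51% at least 2-fold lower, against 1 and 0 of the 8. For single probe sets, which disagreed within some genes, the picture was less uniform: of 14 with a ratio, 10 were negative and 4 positive, against 51.6% negative over 25795 probe sets with 1 symbol. Those past 2-fold were 2 on the higher side (4.19% of all probe sets) and 1 on the lower side (4.67% of all).

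**Figure D1:**
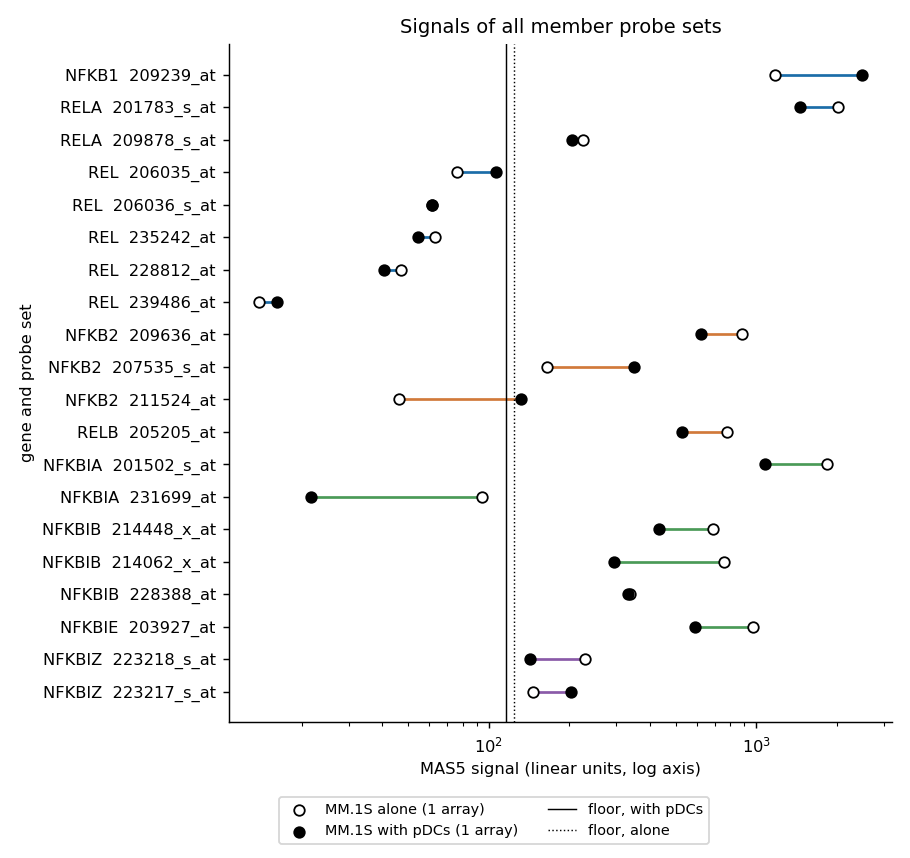
MAS5 signal (horizontal log axis) of each of the 20 member probe sets (rows), with open circles for MM.1S alone and filled circles for MM.1S with pDCs, 1 array each. Lines join the pair and are coloured by role (blue canonical subunits, orange non-canonical subunits, green classical IkB inhibitors, purple NFKBIZ), and vertical lines mark the floors of 115.9 and 124.0. All 5 REL probe sets lie left of the floors. Filled circles lie clearly to the right of open ones for NFKB1 (2491 against 1172). The same holds for the 207535_s_at (350 against 165) and 211524_at (132 against 46.0) probe sets of NFKB2, the latter with its open circle left of the floors. The gap is smaller for the 223217_s_at probe set of NFKBIZ (203 against 146).

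Of the canonical subunits, NFKB1, which encodes the p105 precursor of p50, had a signal of 2491 in co-culture and 1172 in MM.1S alone on its single probe set (209239_at). This was 2.13-fold higher, a log2 ratio of 1.09, and 97.6% of all genes with a ratio had a lower one. No other probe set of NFKB1 was there to check it against. The value was 1.10 after median centring, 1.07 after quantile normalization and 1.06 after loess. The alternative floors and probe set rules could not move it, since its single probe set is far above each floor.

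RELA, the p65 subunit with the main transactivation domain of the canonical dimer, went the other way. Its brighter probe set (201783_s_at) gave 1453 in co-culture against 2028 alone, a log2 ratio of -0.48. The dimmer one (209878_s_at) gave 205 against 224, a log2 ratio of -0.13. Both were lower in co-culture and neither reached 2-fold. The log2 ratio of NFKB1 exceeded that of RELA by 1.57, so the genes for p50 and for its partner p65 differed in opposite directions on these arrays.

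REL, the c-Rel subunit of lymphoid cells, was not measurable here. Its 5 probe sets gave 106 against 76.1 (206035_at), 61.4 against 61.2 (206036_s_at), 54.4 against 62.9 (235242_at), 40.7 against 47.0 (228812_at) and 16.2 against 13.8 (239486_at), co-culture first. All lay under the floor on both arrays, so REL has no ratio.

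Of the non-canonical subunits, NFKB2, the gene of p100 and p52, could not be given a direction because its probe sets disagreed. The brightest (209636_at) gave 622 in co-culture against 882 alone, a log2 ratio of -0.50. The next (207535_s_at) gave 350 against 165, which is 2.12-fold higher and a log2 ratio of 1.09. The third (211524_at) gave 132 against 46.0, under the floor in MM.1S alone, and its log2 ratio was at least 0.09. The range of 1.59 between the first pair was wider than in 95.2% of the 4844 genes that had 2 or more probe sets clear of both floors. RELB, the partner of p52, was measured by 1 probe set (205205_at) at 526 against 776. It was 1.48-fold lower, a log2 ratio of -0.56.

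The contrast of canonical with non-canonical subunits rested on NFKB1. The median log2 ratio was 0.30 over NFKB1 and RELA and -0.53 over NFKB2 and RELB, a difference of 0.84. Without NFKB1 the difference was 0.052, since RELA lay next to RELB and to the brightest NFKB2 probe set. With the next brightest probe set of RELA and NFKB2 it was 0.22, and when all probe sets of each gene were averaged it was 0.32. It was 1.01 with a lower floor or none, and 1.62 without x_at and s_at probe sets, where NFKB1 alone stood for the canonical side. The canonical and non-canonical classes therefore each held a positive and a negative probe set value, and no difference between the classes as such can be read from these arrays.

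**Figure D2:**
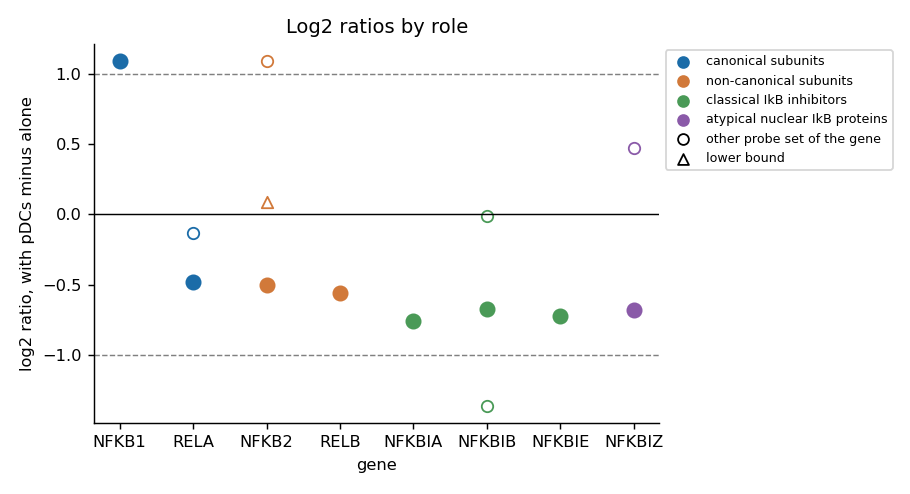
Log2 ratio (vertical axis, MM.1S with pDCs minus alone) of each member probe set above the floor, by gene and coloured by role. Filled circles are the brightest probe set of a gene, open circles its other probe sets, the triangle a lower bound, and dashed lines 2-fold. NFKB1 at 1.09 is the only filled point above 0, and open points of NFKB2 at 1.09 and NFKBIZ at 0.47 lie on the opposite side from the filled points.

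The classical IkB inhibitors, which retain the dimers in the cytoplasm, had log2 ratios between -0.67 and -0.76 for the 3 genes on their brightest probe sets, none of them past 2-fold. Their median was -0.73. Without x_at and s_at probe sets NFKBIA has no value, and the median over NFKBIB and NFKBIE was -0.37. The 5 probe sets with a ratio ran from -1.36 to -0.01. NFKBIA (IkB alpha), the fast feedback inhibitor, gave 1081 in co-culture against 1832 alone (201502_s_at), 1.70-fold lower with a log2 ratio of -0.76. Of all genes with a ratio, 9.45% were lower still. The other NFKBIA probe set (231699_at), at 21.6 against 94.4, was under both floors.

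NFKBIE (IkB epsilon), a slower feedback inhibitor, gave 590 against 976 on its single probe set (203927_at). It was 1.65-fold lower, a log2 ratio of -0.73, with 10.4% of genes lower still. NFKBIB (IkB beta), which binds the same dimers, had 3 probe sets that spread widely. They gave 433 against 690 (214448_x_at, log2 ratio -0.67), 294 against 754 (214062_x_at, 2.56-fold lower) and 333 against 336 (228388_at, log2 ratio -0.01). The x_at class may bind related transcripts, and the only NFKBIB probe set outside it differed least. The log2 ratio of NFKB1 exceeded that of NFKBIA by 1.85.

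Of the atypical IkB proteins, which act in the nucleus as partners of p50 or p52 and not as cytoplasmic anchors, only NFKBIZ (IkB zeta) could be read. Its probe sets went opposite ways near the floor, at 143 in co-culture against 229 alone (223218_s_at, log2 ratio -0.68) and 203 against 146 (223217_s_at, log2 ratio 0.47). NFKBIZ therefore has no settled direction here.

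**Figure D3:**
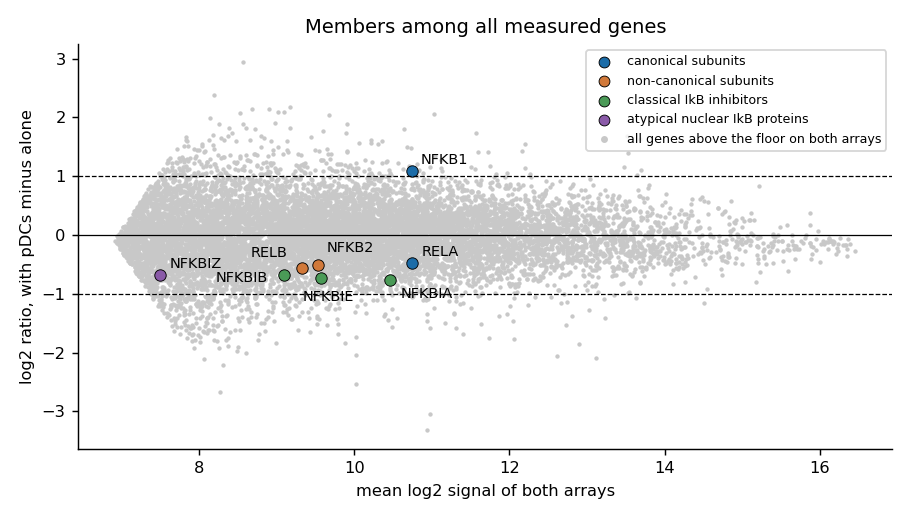
Log2 ratio (vertical axis, MM.1S with pDCs minus alone) against the mean log2 signal of both arrays for each gene above the floor on both arrays (grey) with the 8 measured members coloured by role. Dashed lines mark 2-fold. NFKB1 lies just above the upper line, and the other 7 members lie between -0.48 and -0.76, inside the cloud of other genes.

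With 1 array per condition, the only spread at hand is the disagreement between probe sets of a gene. These are read on the same arrays, so it does not measure the error between arrays or cultures. Across the 4844 genes above, the range of log2 ratios within a gene had a median of 0.56 and a 90th percentile of 1.32, and 51.0% of these genes had probe sets of opposite sign. By size only, the ratios of RELA (-0.48) and RELB (-0.56) were close to this median. Those of NFKBIA (-0.76), NFKBIE (-0.73) and NFKB1 (1.09) were larger in size than the median but under the 90th percentile. A range within a gene is not the error of 1 ratio. Within the members, the range was 0.35 for RELA, 1.15 for NFKBIZ, 1.34 for NFKBIB and 1.59 for NFKB2. NFKB1, RELB and NFKBIE, with 1 probe set each, offer no such comparison.

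For the other genes of the pathway, the shares of all genes past 2-fold (3.16% higher, 4.51% lower) are the background. Of 21 listed canonical activators, 16 had a ratio, 11 of them positive and 5 negative, and their median was 0.10. TRAF6, the ubiquitin ligase downstream of Toll-like and IL-1 receptors, was the only one past 2-fold, at 151 against 468 (3.10-fold lower), while its other probe set gave a log2 ratio of -0.26. Of 9 non-canonical activators, 7 had a ratio. Their median of -0.12 is a bound, that of TNFRSF12A, and was -0.29 with no floor and 0.17 with the higher one. Among them LTBR, the lymphotoxin beta receptor, was under the floor in co-culture (80.8 against 280) and at least 2.42-fold lower, and its 3 other probe sets were under both floors. The kinase genes MAP3K14 (NIK) and CHUK (IKK alpha), named after their values were seen, had log2 ratios of 0.17 and -0.29.

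Of the non-canonical brakes, which hold NIK low, 3 of 5 had a ratio and none passed 2-fold. BIRC2 gave 2664 against 2586 and TRAF3 gave 741 against 913, a log2 ratio of -0.30. Of 12 general brakes, 11 had a ratio, with a median of -0.24. PDLIM2, which promotes the degradation of nuclear RELA, was the only one past 2-fold, at 300.4 in co-culture and 79.2 alone, under the floor in the latter, and so at least 2.42-fold higher. The other PDLIM2 probe set was under both floors.

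Of 32 listed NF-kB target genes that are not members, 21 had a ratio, with 9 positive, 12 negative and a median of -0.36. Of these, 2 were at least 2-fold higher and 3 at least 2-fold lower, beside the 3.16% and 4.51% of all genes. On the higher side were the chemokine genes CCL5, at 1083 against 305 (3.55-fold), and CCL4, at 1733 against 792 (2.19-fold). On the lower side were the matrix protease MMP9, at 186 against 565 (3.05-fold lower), the adhesion ligand ICAM1 (1325 against 2846) and CFLAR, a caspase-8 inhibitor named after its values were seen (2940 against 6206). The other ICAM1 probe sets gave log2 ratios of -0.43, inside 2-fold, and -1.05. Of the 30 listed targets with a probe set, 9 were under the floor on both arrays, among them CXCL1, CCL20, IL6 and TNF. Others, such as CXCL3, IL1B and TNFAIP3, were above it on both. These genes were also named after their values were seen. Genes of an NF-kB activity index known from myeloma, without the members in it, had a median of -0.07 over 6 genes. Of these, 3 were positive and 3 negative, none past 2-fold. The brightest of them were both on the negative side. CD74, the invariant chain of HLA class II, gave 36742 against 51236, and IL2RG, the common gamma chain of cytokine receptors, gave 5633 against 7832.

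**Figure D4:**
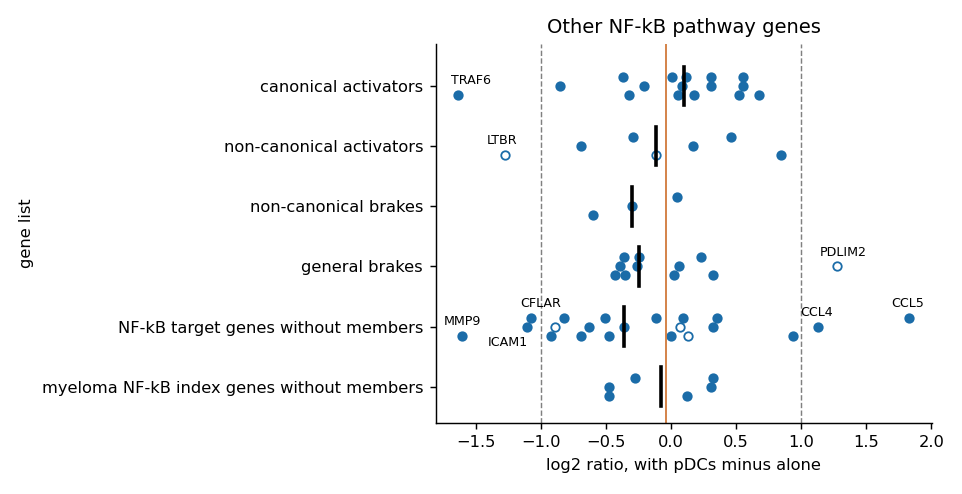
Log2 ratio (horizontal axis, MM.1S with pDCs minus alone) of each gene with a ratio in 6 lists of NF-kB pathway genes (rows, points spread vertically for clarity), with open points for bounds, black bars for list medians, dashed lines for 2-fold and an orange line for the median of all genes at -0.04. Genes past 2-fold are named, and the medians run (the one of non-canonical activators being a bound) from -0.36 in target genes to 0.10 in canonical activators.

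**Figure D5:**
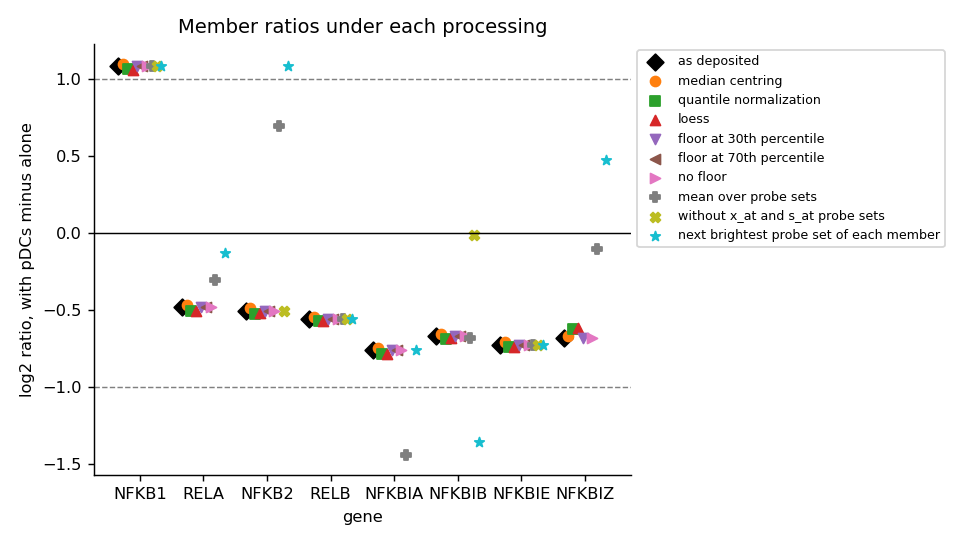
Log2 ratio (vertical axis, MM.1S with pDCs minus alone) of each measured member under the processing as deposited (black diamond) and under each alternative (other symbols), with dashed lines at 2-fold. NFKB1, RELB and NFKBIE, with 1 probe set each, hardly move, while NFKB2 (-0.53 to 1.09), NFKBIB (-1.36 to -0.01) and NFKBIZ (-0.68 to 0.47) depend on which probe set is read.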

How the data were processed

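The authors deposited a linear intensity for each probe set, computed with MAS5 according to the submitters' processing notes. Its version was not given in the sources used here, and no detection calls were used. Both arrays have a mean of 500.1 after trimming 2% at each end, which hides any shift shared by most transcripts. Groups were taken from sample titles. Probe sets were named through the platform annotation. All 20 member probe sets matched a RefSeq gene of the same symbol.

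Signals under the median of their array were set to it. A gene was read from its brightest probe set. A ratio with 1 array under the floor is a bound. With 1 array in each group there was no test, and precision is limited by the number of arrays. Members and lists were chosen with earlier results of these data known. The text names all members and, of each pathway list, up to 4 genes with the largest ratios past 2-fold or else the 2 brightest. Of the marker lists it names CLEC4C, LILRA4, IL3RA, NRP1, SDC1, CD38, IRF4, XBP1, CD14 and LYZ. The markers LAMP5, TCF4, IRF7, ITGAM, FCN1, FCGR1A, PPBP, PF4 and TNFRSF17, and the pathway gene TNFRSF12A, were added after their values were seen. List members without a probe set of 1 symbol, such as TRAF2 and BIRC3, were not analysed here. Alternatives were median centring, quantile normalization, loess (span 0.3), a floor at the 30th or at the 70th percentile, no floor, the mean over probe sets with the floor set after averaging (so that probe sets under the floor enter), leaving out x_at and s_at probe sets, and thresholds of 1.5-fold and 3-fold. The next brightest probe set of each member, and leaving out NFKB1, were added after seeing the data. The ratio step was tested on simulated data only for changes well past 2-fold in bright probe sets. Smaller changes and dimmer probe sets, as in most members, were not covered. Python 3.11.15, numpy 2.4.6, pandas 2.3.3, statsmodels 0.14.6 and matplotlib 3.10.9 were used.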

Additional observations from a re-analysis of the deposited data

How the results depend on the processing

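Median centring, quantile normalization and loess left every count of members and every sign of a member unchanged. The 1 member gene past 2-fold on the higher side became 0 at 3-fold and 2 with the next brightest probe sets. The 0 on the lower side became 1 with the mean over probe sets (NFKBIA, -1.44, where a probe set under both floors enters with its unfloored signals), 1 with the next brightest probe sets (NFKBIB, -1.36) and 4 at 1.5-fold. Member probe sets past the threshold, 2 higher and 1 lower, became 1 higher with the floor at the 70th percentile, 1 higher and 0 lower without x_at and s_at probe sets, 0 and 0 at 3-fold, 3 higher and 2 lower with the floor at the 30th percentile or none, and 5 lower at 1.5-fold. The canonical minus non-canonical difference of 0.84 became 1.01 with the floor at the 30th percentile or none, where REL enters. It was 0.32 with the mean over probe sets, 1.62 without x_at and s_at probe sets, 0.22 with the next brightest probe sets and 0.052 without NFKB1. The median of the classical inhibitors became -0.37 without x_at and s_at probe sets, over NFKBIB and NFKBIE only. NFKBIZ became -0.10 with the mean over probe sets and 0.47 with its next brightest probe set, and NFKB2 turned to 0.70 and 1.09 under the same alternatives, the 0.70 including the unfloored signals of a probe set under the floor in MM.1S alone. The target gene median became -0.24 with the floor at the 30th percentile or none, -0.50 with the mean over probe sets and -0.11 without x_at and s_at probe sets. Target genes past the threshold became 1 higher and 1 lower at 3-fold, 8 lower at 1.5-fold or with no floor, 1 lower with the mean over probe sets and 0 lower without x_at and s_at probe sets. Over all genes, 456 higher and 650 lower became 1502 and 1920 (floor at the 30th percentile), 187 and 199 (70th), 2365 and 2776 (none), 1656 and 2208 (1.5-fold) and 64 and 95 (3-fold). List medians that turned sign were those of the canonical activators (-0.32 without x_at and s_at probe sets), the non-canonical activators (0.17 with the floor at the 70th percentile, 0.03 with the mean over probe sets, 0.31 without x_at and s_at probe sets) and the non-canonical brakes (0.04 with the mean over probe sets). RELA, NFKBIA and NFKBIZ have no value without x_at and s_at probe sets, and NFKBIZ none with the floor at the 70th percentile. The causes were not tested. No paired analysis was possible because each group has 1 array. Signals near the floor limit what can be said of REL and NFKBIZ.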

Other observations

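The probe sets that the annotation assigns to both BCL3 and MIR8085 were outside the selection. One (204908_s_at) gave 846 in co-culture against 1463 in MM.1S alone, a log2 ratio of -0.79, and the other (204907_s_at), at 9.13 against 34.6, was under both floors. Neither value can be assigned to BCL3 alone.

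Genes with the kB motif in a promoter window were set against genes without one, over genes with a ratio and a window. The median log2 ratio was -0.02 over 1910 genes with the motif and -0.04 over 9620 without. At least 2-fold higher were 3.93% and 2.87%, and at least 2-fold lower were 4.40% and 4.35%. These are descriptions of 1 pair of arrays with no test.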
